A study of Mus musculus with 1073 samples.

Results

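The genes described here are 6 markers of pluripotency, *Pou5f1* (OCT4), *Nanog*, *Sall4*, *Utf1*, *Tdgf1* (CRIPTO) and *Dppa4*, in single cells of the mouse yolk sac. They were chosen by name, and *Sall4* was selected on its place among the top genes of E7.25 cells, so its high level at E7.25 was used in the choice and is given only as a description. Of the 6 genes, 4 were among the 15967 genes of the tables that the authors had filtered, namely *Pou5f1*, *Sall4*, *Tdgf1* and *Dppa4*. *Nanog* and *Utf1* were read from the unfiltered table of 47643 genes, and their counts were scaled with the factor that the authors used for each cell. The tables hold 926 cells that passed the authors' filter, of 1073 captured.

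Pluripotency is the capacity of the epiblast, the layer that gives rise to the embryo proper, to form every germ layer. OCT4, encoded by *Pou5f1*, and NANOG are transcription factors of the network that maintains it, SALL4 is a zinc finger factor of the same network, and UTF1 and DPPA4 are chromatin-associated proteins of undifferentiated cells. CRIPTO, encoded by *Tdgf1*, is the co-receptor through which NODAL signals to its activin receptors, and *Tdgf1* is also transcribed in the primitive streak. As epiblast cells pass through the streak and become mesoderm, including the extraembryonic mesoderm that lines the yolk sac and forms its blood and endothelium, the activity of this network declines.

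E7.25 (neural plate stage) and E7.75 (early headfold stage) cells came from *Flk1*-GFP/+ mice, in which GFP is expressed from the *Flk1* (*Kdr*) locus, and were sorted as *Flk1*-GFP+ mesoderm after trypsin treatment. The 11 later populations came from C57BL/6 yolk sacs digested with collagenase/dispase, and the *Flk1*-GFP line was itself kept on C57BL/6. Haematopoietic progenitors (HPC, which the labels call erythro-myeloid progenitors) were TER119- CDH5+ CD41+ at E8.25 and E8.5, and TER119- CDH5- CD45+ CD41low at E9.5 and E10.5. Primitive erythroid cells (EryP) were CD41- CDH5- TER119+ at E8.5, and also CD45- at E10.5. Megakaryocytes (Mk) were TER119- CDH5- CD41+ at E8.5, and TER119- CDH5- CD45- CD41high at E10.5. Macrophages (Mac, E10.5) were TER119- CDH5- CD41- CD45+. Endothelial cells (Endo) were TER119- CD41- CDH5+ at E8.5, and also CD45- at E10.5. The 2 mesoderm stages held 287 cells, 140 of them E7.75 cells and the rest E7.25 cells, and the later populations held 639.

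Each deposited sample is a single cell, and no source used here says which embryo or pool a cell came from. Each population was therefore treated as 1 sample, no test between populations was made, and intervals cover counting error only. A cell had between 483830 and 5943204 counts (median 1887347), with medians of 1822221 for the E7.25 cells and 2017803 for the E7.75 cells. The E7.25 cells were read in 2 lanes (73 and 74 cells) of the flow cell that also carried the E8.25 and E8.5 cells. The E7.75 cells were read in 2 lanes (53 and 87 cells) of another flow cell, so the stage and the sequencing run cannot be told apart between E7.25 and E7.75. *Kdr* transcripts, the marker of the gate, were found in 95.2% of the earlier and 72.1% of the later mesoderm cells. Counts of both *Xist* and Y-linked genes (5 or more of each) were present in 33 E7.25 cells, in 17 of the 140 E7.75 cells and in 59 of 79 E8.5 Endo cells. The source of these mixed counts was not tested. Unless stated otherwise, a cell was counted as positive for a gene at 1 count or more. A level is the mean over cells of the authors' CPM, which are counts scaled for the size of each library.

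RefSeq promoter windows (250 bases before to 50 after a transcription start, GRCm38.p6) matched 4 of the 6 genes. The first windows of *Pou5f1*, *Nanog* and *Tdgf1* are shown because these members were found mainly at E7.25. Capitals mark matches on either strand to 4 motifs, the core of the POU octamer ATGCAAA, the SOX core ACAATG, the GC box GGGCGG and the TATA box TATAAA.
*Pou5f1*, chr17:35505782-35506081, plus strand: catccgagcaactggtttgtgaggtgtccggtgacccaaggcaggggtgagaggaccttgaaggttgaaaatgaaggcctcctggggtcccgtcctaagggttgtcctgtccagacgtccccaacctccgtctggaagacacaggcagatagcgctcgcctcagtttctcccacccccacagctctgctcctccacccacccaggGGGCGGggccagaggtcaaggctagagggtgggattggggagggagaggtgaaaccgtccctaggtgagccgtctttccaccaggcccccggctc
*Nanog*, chr6:122707239-122707538, plus strand: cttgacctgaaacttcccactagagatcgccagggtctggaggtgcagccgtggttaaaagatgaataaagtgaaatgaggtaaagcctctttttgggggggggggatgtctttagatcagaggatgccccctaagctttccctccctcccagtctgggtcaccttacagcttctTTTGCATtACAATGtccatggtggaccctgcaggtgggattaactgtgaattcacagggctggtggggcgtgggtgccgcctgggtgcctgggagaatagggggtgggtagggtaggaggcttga
*Tdgf1*, chr9:110946109-110946408, minus strand: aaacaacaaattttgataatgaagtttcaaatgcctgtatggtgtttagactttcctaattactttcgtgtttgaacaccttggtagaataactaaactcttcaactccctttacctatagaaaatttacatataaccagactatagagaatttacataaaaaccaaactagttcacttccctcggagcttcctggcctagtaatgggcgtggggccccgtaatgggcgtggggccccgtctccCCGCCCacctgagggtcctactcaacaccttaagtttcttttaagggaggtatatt
The *Nanog* window holds the octamer core, on its reverse strand at position -75 from the start, 1 base away from a SOX core at position -67. The octamer core occurs in 4.63% and the SOX core in 12.6% of the 32851 windows in the table. The *Pou5f1* window has a GC box at position -45 and the *Tdgf1* window a GC box at position -6, a motif in 35.7% of windows. The TATA box, in 13.6% of windows, was not matched in any of the 3. These matches describe the letters of the windows and were not tested for binding.

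*Pou5f1* (ENSMUSG00000024406, GRCm38 chr17:35506018-35510772, plus strand) was found in *Flk1*-GFP+ mesoderm alone. At E7.25, 70 cells were positive (47.6%, exact 95% interval 39.3 to 56.0), and at E7.75, 18 of 140 (12.9%, interval 7.80 to 19.6). In each of the 11 later populations *Pou5f1* had 0 counts. With 0 of 639 cells positive, the limit set by 3 cells is 0.469%, and the exact 95% interval ends at 0.576%. The level was low even where the gene was present. The mean was 4.51 CPM (SD over cells 9.32) at E7.25 and 1.64 CPM (SD 6.04) at E7.75, and the highest cells reached 65.9 and 40.2 CPM. Among positive cells the median was 5.51 CPM at the earlier stage and 9.67 CPM at the later, so the lower mean at E7.75 went with fewer positive cells. Both E7.25 lanes gave a like share, 36 of 73 and 34 of 74 cells. With 10 counts or more as the limit, the positive share was 24.5% at the earlier stage and 7.14% at the later. An antisense gene, *Gm19553*, shares 317 exon bases with *Pou5f1* and had 0 counts.

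*Nanog* (ENSMUSG00000012396, chr6:122707489-122714633, plus strand) followed the same order with fewer cells. It was found in 15 E7.25 cells (10.2%, interval 5.82 to 16.3), in 4 of 140 at E7.75 (2.86%, interval 0.784 to 7.15) and in 0 of 639 later cells. Its mean was 2.46 CPM (SD 11.3) at E7.25 and 0.398 CPM (SD 2.58) at E7.75. The counts were carried by few cells, with 182 counts in the highest cell. The lanes at E7.25 differed, with 11 of 73 positive cells in lane 6 and 4 of 74 in lane 7, and without lane 6 the share was 5.41%. Of the 15 positive cells at E7.25, 11 also held *Pou5f1*.

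*Sall4* (ENSMUSG00000027547, chr2:168748332-168767943, minus strand) was the member with the highest level and the widest distribution. Every E7.25 cell was positive (100%, interval 97.5 to 100), and the values ran from 40.7 to 4152 CPM with a median of 969 and a mean of 1071 (SD 689). At E7.75, 98.6% of the cells were positive, with a median of 557 CPM, a mean of 659.8 (SD 509) and a maximum of 3198. The ranges of the 2 stages overlapped broadly, and 35 of 140 E7.75 cells lay above the E7.25 median. An overlapping gene, *Gm14261*, shares 526 exon bases with *Sall4* and had 0 counts at E7.25. *Sall4* was then present at a lower level in the E8.25 and E8.5 populations. The mean was 84.1 CPM (median 37.4, highest cell 652.9) in E8.5 Endo, 83.1 (SD 91.9) in E8.25 HPC, 69.8 (SD 81.6) in E8.5 Mk, 58.7 (SD 60.2) in E8.5 HPC and 42.7 (SD 57.9) in E8.5 EryP, and 74.2% to 92.1% of the cells in these 5 populations were positive. From E9.5 on the mean was 35.8 CPM (SD 66.0) in E9.5 HPC, 31.4 (median 0.421, highest cell 612.7) in E10.5 Endo, 12.2 (SD 25.7) in E10.5 HPC, 1.345 (SD 7.54) in E10.5 Mk and 0.466 (SD 1.43) in E10.5 Mac. None of the 3 E10.5 EryP cells held a count. In this order of means, the step between E7.75 and E8.5 Endo (576 CPM) was the single step larger than the SD over cells of both neighbours. No cell from E8.25 on reached the E7.25 median. Within the HPC series 89.0% of E8.25, 92.1% of E8.5, 69.6% of E9.5 and 31.0% of E10.5 cells were positive. The gate, the flow cell, the mouse line and the dissociation also differed between some of these populations, and their part cannot be told apart from that of the stage. Per kilobase of exon, a scale that allows genes to be compared, the E7.25 mean was 193 CPM for *Sall4*, 90.8 for *Tdgf1*, 2.01 for *Pou5f1*, 1.10 for *Nanog*, 0.131 for *Dppa4* and 0.0352 for *Utf1*.

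*Utf1* (ENSMUSG00000047751, chr7:139943789-139945112, plus strand) was nearly absent. It was found in 3 E7.25 cells with 7, 6 and 1 counts, in 0 of 140 E7.75 cells (limit of 2.14% from 3 cells, exact interval up to 2.60%), in 1 E8.5 Endo cell with 63 counts and in 1 E9.5 HPC cell with 43 counts. No order of populations can be read from 5 cells.

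**Figure D1:**
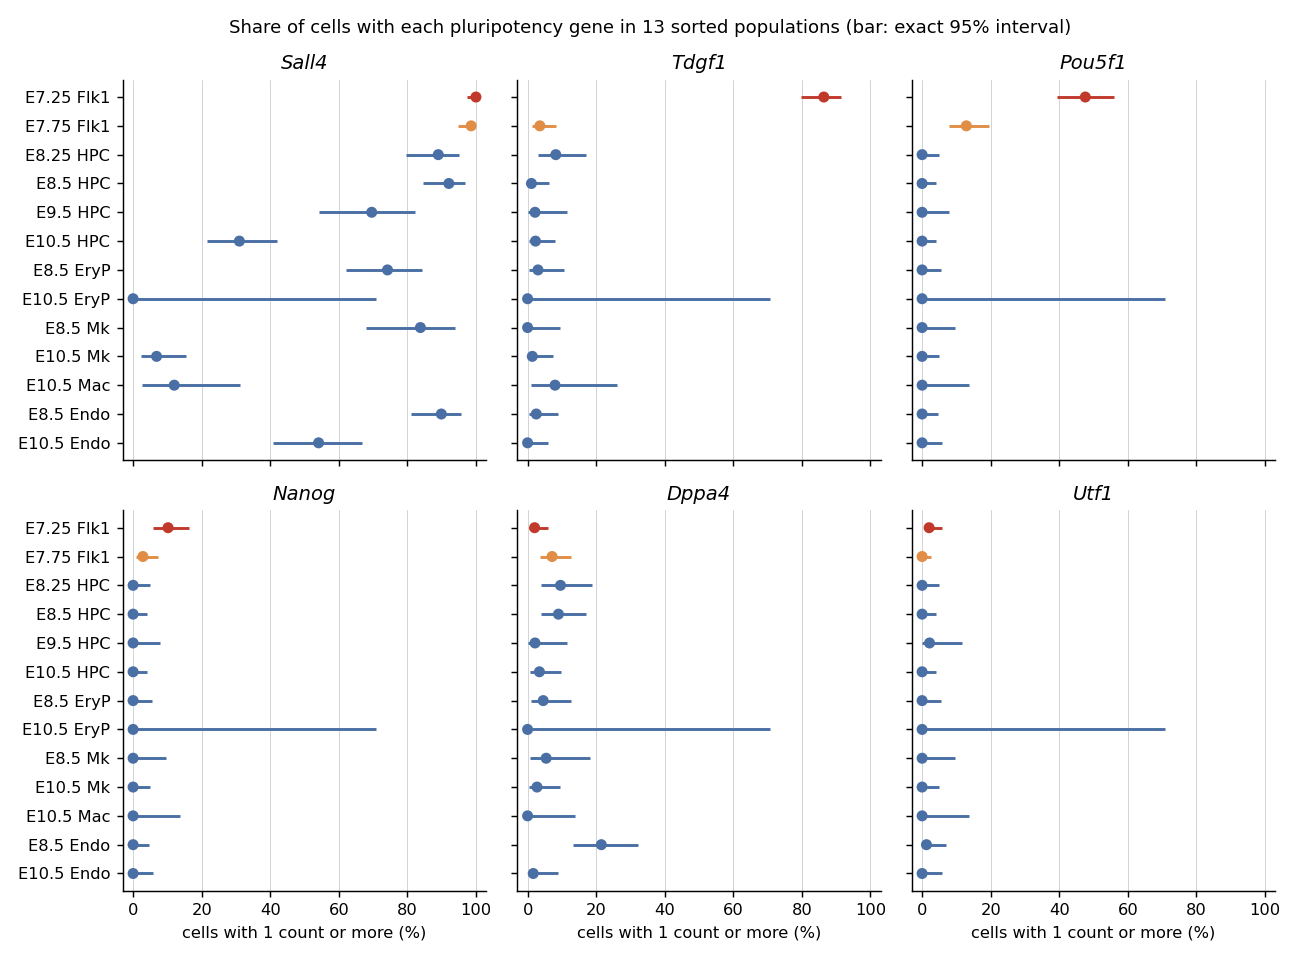
Share of cells with 1 count or more (x axis, percent) for each of the 6 genes in the 13 populations (y axis). Points are shares and bars exact 95% intervals, E7.25 in red, E7.75 in orange and later populations in blue. *Pou5f1* and *Nanog* lie at 0 in all blue populations, *Tdgf1* drops from 86.4% to 3.57% between the first 2 rows, and *Dppa4* is highest, at 21.5%, in E8.5 Endo.

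*Tdgf1* (ENSMUSG00000032494, chr9:110939603-110946158, minus strand) showed the steepest difference between the 2 mesoderm stages. At E7.25, the positive share was 86.4% (interval 79.8 to 91.5), with a mean of 238.2 CPM (SD 455), a median of 51.8, quartiles of 1.42 and 266 and a maximum of 3459. At E7.75, 5 of 140 cells were positive (3.57%, interval 1.17 to 8.14) and the mean was 0.993 CPM (SD 7.85). Of those 5 cells, 3 held 10 counts or more. The level thus differed widely among E7.25 cells, whereas at E7.75 nearly all cells were at 0. Both E7.25 lanes showed this spread, with 67 of 73 positive cells and a mean of 262.5 CPM in lane 6 and 60 of 74 and 214.2 CPM in lane 7. In the later populations 17 of 639 cells held a count. The highest share was 8.22% (6 of 73, interval 3.08 to 17.0) in E8.25 HPC, with a mean of 0.287 CPM. At 10 counts or more the E7.25 share was 67.3%. After thinning each cell to 840000 counts it was 80.3%, and 4.10% at E7.75, where 18 of 140 cells were too shallow to be kept.

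*Tdgf1* has a processed pseudogene, *Tdgf1-ps1* (ENSMUSG00000095834, chr16:3730510-3731022), and whether the counting kept their reads apart was not tested. At E7.25 *Tdgf1-ps1* had 9568 counts in 92 cells against 62868 for *Tdgf1*, or 13.2% of their sum. In the 74 cells with 100 or more counts of the pair, this share had a median of 13.8% and quartiles of 11.0% and 15.8%, and the 2 genes had a Spearman rho of 0.94 across all E7.25 cells. The level of *Tdgf1* is therefore given as uncertain. Summing both gave a log2 ratio between the stages that differed little from that of *Tdgf1* alone and is given with the other settings in the closing section.

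*Dppa4* (ENSMUSG00000058550, chr16:48283733-48294237, plus strand) did not share the early pattern. It was found in 3 E7.25 cells (2.04%, interval 0.423 to 5.85) with a mean of 0.218 CPM (SD 1.77), and in 10 of 140 at E7.75 (7.14%, interval 3.48 to 12.7) with a mean of 1.475 CPM (SD 7.69). Its highest share and mean were in E8.5 Endo, with 17 of 79 cells (21.5%, interval 13.1 to 32.2) and 10.55 CPM (SD 35.0). The next populations were E8.25 HPC with 7 of 73 cells and 2.48 CPM (SD 9.52) and E8.5 HPC with 8 of 89 and 1.90 CPM (SD 9.95). From E9.5 on, the share was 3.45% or less. The difference in means between E8.5 Endo and E8.25 HPC, 8.07 CPM, was smaller than the SD over cells of either. Positive E8.5 Endo cells ran up to 384 counts, and 11 of the 17 held 10 counts or more. In the same population 59 of 79 cells held both *Xist* and Y-linked counts, and *Itga2b*, which encodes the CD41 used to exclude cells from this gate, was found in 72 of 79. Without the cells that held both kinds of sex-linked counts, 30.0% of the E8.5 Endo cells were positive for *Dppa4* and the log2 ratio over E7.25 was 1.65 in place of 3.25.

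**Figure D2:**
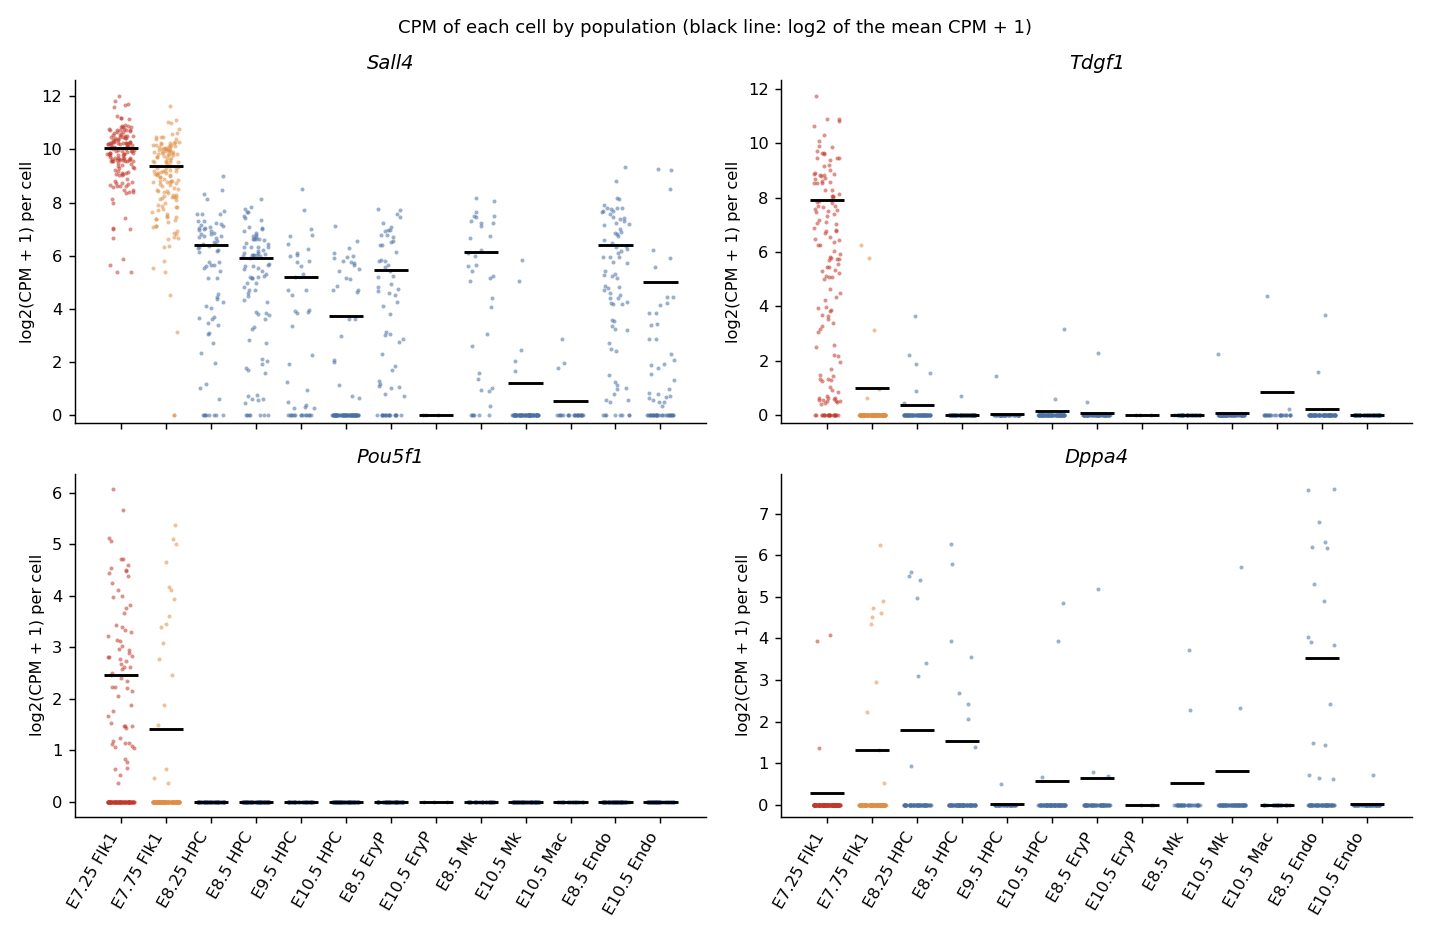
CPM of each cell, as log2(CPM + 1) on the y axis, for 4 members in the 13 populations (x axis). Each point is a cell and the black line marks log2 of the population mean CPM + 1. The E7.25 cells spread from 0 to 3459 CPM for *Tdgf1*, and *Sall4* lies between 40.7 and 4152 CPM in every E7.25 cell.

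The question asked of the 2 mesoderm stages was which of these genes differ between E7.25 and E7.75. Ratios are given as log2 of (mean CPM + 1), later stage over E7.25, a scale that understates the change of low genes. *Tdgf1* had a log2 ratio of -6.91, the lowest of the 8877 genes that reached a mean of 10 CPM and 10% of cells at either stage. Its 4 pairings of an E7.25 lane with an E7.75 lane gave values between -8.03 and -6.38. *Sall4* had -0.70, less than 2-fold, with -0.86 to -0.54 over the lane pairings. These were the 2 members above the filter, and 1 of them was past 2-fold. Of all compared genes 5.44% were 2-fold or more lower, and the median of all was 0.04. *Tdgf1* passed the filter through E7.25 alone, so it could only be lower at E7.75 and nothing is read from that share. *Pou5f1* (-1.06), *Nanog* (-1.31), *Utf1* (-0.06) and *Dppa4* (1.02) were below the filter. For *Pou5f1* the lane pairings ran from -1.47 to -0.70. For *Nanog* they were -1.95 and -1.92 against lane 6 but -0.24 and -0.21 against lane 7, so its difference rested on lane 6.

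Against E8.25 HPC, the first blood progenitors, *Sall4* had a log2 ratio of -3.67 (12.9-fold in mean CPM) and *Tdgf1* of -7.54. *Pou5f1* was at least 183-fold higher at E7.25, taking 3 counts over the group as the floor for E8.25 HPC. Against E8.5 Endo, *Sall4* had -3.65 and *Tdgf1* -7.67. Of 9471 genes, 12.8% were 2-fold or more lower and 20.7% were 2-fold or more higher. *Tdgf1* passed the filter through E7.25 alone in both comparisons, so it could only be lower. The E7.25 level of *Sall4* was used in its choice, so nothing is read from the share of lower genes. *Dppa4* had 3.25, but it passed the filter through E8.5 Endo alone. It could only be higher there, and nothing is read from the share of higher genes. For *Pou5f1*, with 0 counts in E8.5 Endo, the same floor gave a ratio of 204, which is not a lower bound either. All 3 comparisons share the E7.25 cells. Against E8.25 HPC and E8.5 Endo, the gate, mouse line and dissociation differ along with the stage, and their parts cannot be told apart. *Pou5f1* and *Tdgf1* had their highest mean of the 13 populations at E7.25, as had 7.14% of all 15967 genes, and *Dppa4* did not. For *Sall4* the same held, but its E7.25 level was used to choose it. *Pou5f1* was also among the 30 genes (0.188%) that were found at E7.25 and in no cell from E8.25 on.

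**Figure D3:**
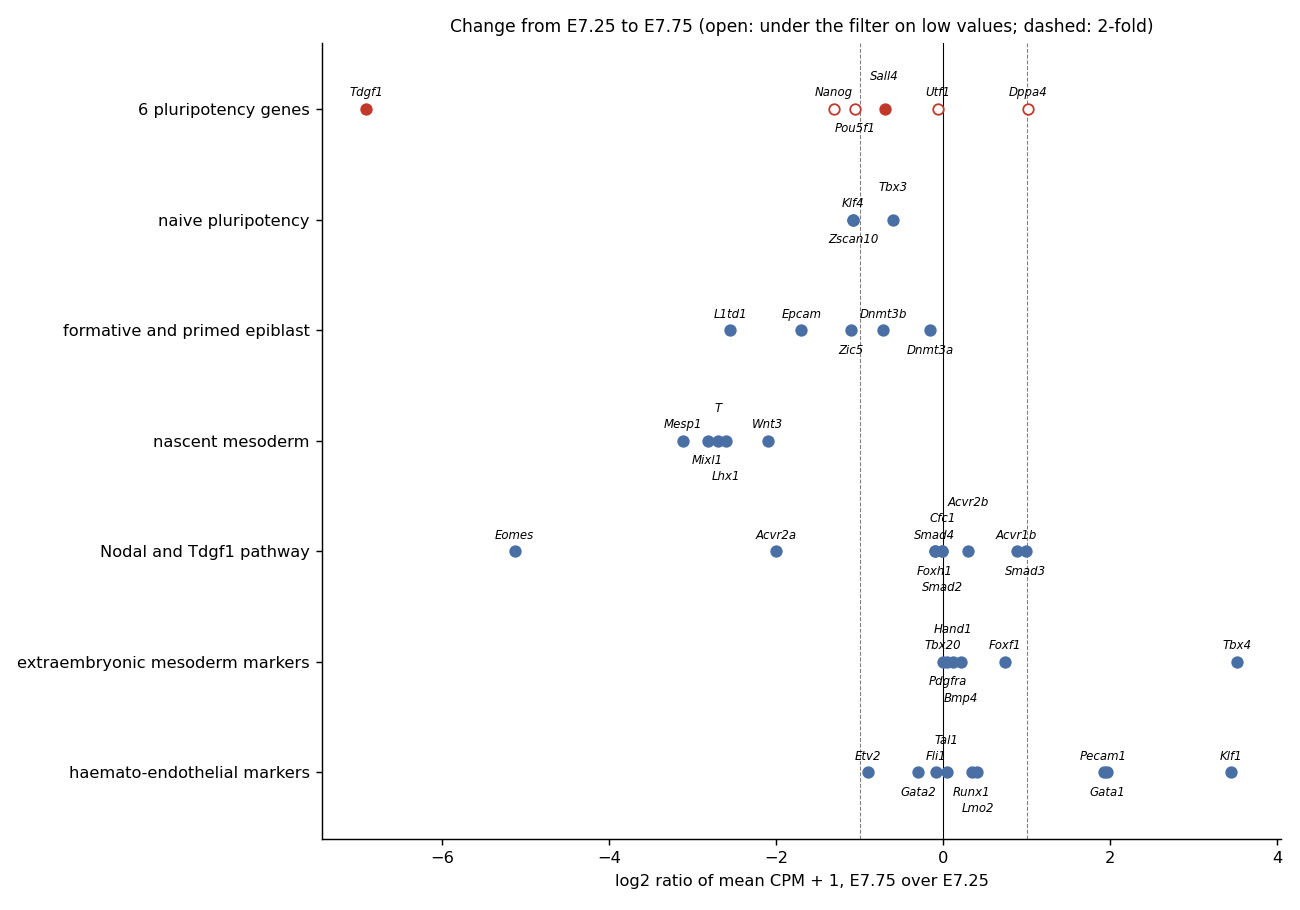
Log2 ratio of mean CPM + 1, E7.75 over E7.25 (x axis), for the 6 genes (top row, red) and for listed genes that passed the filter on low values (blue, 1 row per list). Open points are members below the filter and dashed lines mark 2-fold. *Tdgf1* at -6.91 and *Eomes* at -5.13 lie farthest to the left, and the 5 nascent mesoderm genes lie between -3.11 and -2.10.

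Other genes of the pluripotent state varied in frequency in the *Flk1*-GFP+ cells. At E7.25, 5 of 18 naive pluripotency genes and 7 of 15 formative and primed epiblast genes were found in 20% of cells or more. Of 18 naive pluripotency genes, 11 were in the filtered tables and 3 passed the filter between the stages, of which 2 were 2-fold or more lower at E7.75, beside 5.44% of all compared genes. *Zscan10*, a zinc finger factor of embryonic stem cells, was found in 120 E7.25 cells (38.35 CPM) and 56 of 140 at E7.75 (17.55 CPM). *Klf4* was found in 76 and 36 cells and *Dppa5a* in 79 and 39. *Tbx3*, which also acts in mesoderm, had the highest level of the list at 119.2 CPM and a log2 ratio of -0.60. *Sox2*, the partner of OCT4, was found in 3 E7.25 cells, *Esrrb* in 7, *Fgf4* in 4 and *Dppa2*, the partner of *Dppa4*, in 8. *Nr0b1* and *Tcl1* had no count. Of 15 formative and primed epiblast genes, 5 passed the filter and 3 were 2-fold or more lower, namely *L1td1* (-2.55), *Epcam* (-1.70) and *Zic5* (-1.11). These 3, and *Klf4* of the naive list, passed the filter through E7.25 alone. They could only be lower at E7.75, and nothing is read from their number. *Dnmt3b*, the DNA methyltransferase of this state, had 220.9 CPM at the earlier stage, 133.7 at the later and 255.5 CPM in E8.25 HPC. *Dnmt3a*, *Epcam* and *Zic5* were found in 96.6%, 55.8% and 49.0% of E7.25 cells. *Otx2* was found in 28 cells of the earlier and 4 of the later stage, and *Fgf5* in 11 and 1.

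In the pathway in which CRIPTO acts, *Eomes* and *Acvr2a* were 2-fold or more lower at E7.75. Of 16 Nodal pathway genes 9 passed the filter, 2 were 2-fold or more lower at E7.75 (5.44% of all compared genes were), and the list median was -0.01 beside 0.04 for all genes. The ligand *Nodal* was found in 3 E7.25 cells and in none of the E7.75 cells. *Cfc1*, which encodes the related co-receptor CRYPTIC, was at 74.5 and 73.9 CPM. The receptor genes *Acvr1b* and *Acvr2b* had log2 ratios of 0.88 and 0.30, and *Acvr2a* had -2.00. *Foxh1*, which encodes the partner of the SMADs in this pathway, was at 265.8 and 248.5 CPM and *Smad2* at 77.3 and 77.0. The target genes differed, with *Lefty2* found in 29 E7.25 cells and in none of the E7.75 cells, and *Eomes*, which encodes a T-box factor of nascent mesoderm, at 105.6 and 2.04 CPM (-5.13). All 5 nascent mesoderm genes that passed the filter were 2-fold or more lower at E7.75, with a list median of -2.70. Of these, *T*, *Mesp1*, *Wnt3* and *Lhx1*, like *Eomes*, passed the filter through E7.25 alone. They could only be lower at E7.75, and nothing is read from their number. *Mixl1* was at 270.2 and 37.4 CPM, *T* (Brachyury) at 66.6 and 9.40 and *Mesp1* at 15.0 and 0.849. Of 8 relatives of the members, 5 passed the filter and 1, *Sall1* (-1.59), was 2-fold or more lower. *Sall3* was at 123.3 and 107.3 CPM. Of 8 extraembryonic mesoderm markers 6 passed the filter, 0 were 2-fold or more lower and 1 was higher (*Tbx4*, 3.52), with a median of 0.17, where 4.82% of all compared genes were 2-fold or more higher. Of 10 haemato-endothelial markers 9 passed, 0 were lower and 3 were higher (*Klf1* 3.45, *Gata1* 1.96 and *Pecam1* 1.92), with a median of 0.34. *Tbx4*, *Klf1* and *Pecam1* passed the filter through E7.75 alone, so they could only be higher there. Of the germ cell markers 2 passed and 1, *Alpl* (-1.12), was lower.

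The number of members per cell differed between E7.25 and E7.75, as did the separate shares of *Tdgf1* (86.4% and 3.57%) and *Pou5f1* (47.6% and 12.9%). At E7.25, 11 cells held 1 member, 65 held 2, 61 held 3, 9 held 4 and 1 held 5. At E7.75, 2 cells held none, 75.7% of cells held 1, 27 cells held 2 and 5 held 3. Cells with 3 or more made up 48.3% of the earlier and 3.57% of the later stage. With 10 counts required they made up 21.8% of the earlier stage. What the separate shares alone would give for 3 or more members was not worked out. *Pou5f1* and *Tdgf1* were found together in 62 E7.25 cells (42.2%), and 41.1% would hold both if the genes were unrelated. *Pou5f1* and *Nanog* were together in 7.48% of cells, with 4.86% if unrelated, and these 2 figures rest on 11 cells.

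Across the E7.25 cells, levels of the 3 most frequent members were weakly related, with Spearman rho of 0.37 for *Pou5f1* and *Sall4*, 0.28 for *Sall4* and *Tdgf1* and 0.27 for *Pou5f1* and *Tdgf1*. These values, and those that follow, describe cells that share lanes and library preparation. Their own rho with total counts lay between -0.11 and 0.07, and with the number of genes found between 0.12 and 0.26. *Tdgf1* was most like *Tdgf1-ps1* (0.94), *Eomes* (0.75) and *Emb* (0.59), the latter encoding the adhesion protein embigin. The rho of *Tdgf1* and *Eomes* was 0.80 in lane 6 and 0.67 in lane 7, and 0.75 after thinning. *Tdgf1* also had positive values with all 7 nascent mesoderm genes found in 20% of cells or more, with a median of 0.48. Of all 11463 such genes 7356 were positive, with a median of 0.04, so nothing is read from the number of positive genes. *Mesp1* (0.56), *Mixl1* (0.53) and *Lhx1* (0.48) were among them, whereas *T* was at the low end (0.07).

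*Sall4* had rho values of opposite signs for haemato-endothelial and extraembryonic mesoderm genes. At E7.25 its rho was negative with all 9 haemato-endothelial genes found in 20% of cells or more, with a median of -0.46, and positive with all 5 extraembryonic mesoderm genes, with a median of 0.38. Of all 11463 genes found in 20% of cells or more, 7626 were positive and 3836 negative, with a median of 0.05. *Fli1* (-0.50), *Lmo2* (-0.47), *Tal1* (-0.46), *Gata2* (-0.46) and *Runx1* (-0.46), transcription factors of blood and endothelium, had the lowest values. *Hand1* (0.42) and *Foxf1* (0.41), factors of extraembryonic mesoderm, had the highest of their list. At E7.75, in other cells on another flow cell, 9 of 10 haemato-endothelial genes were negative (median -0.52, *Tal1* -0.61, *Runx1* -0.59) and 7 of 7 extraembryonic mesoderm genes positive (median 0.46, *Hand1* 0.68, *Foxf1* 0.57). Of all 11535 genes found in 20% of E7.75 cells or more, 7008 were positive and 4527 negative, with a median of 0.04. *Etv2*, a factor that acts before the others in blood and endothelium, had -0.22 at the earlier stage and 0.02 at the later. For *Tal1* the values in the 4 lanes lay between -0.64 and -0.35. The genes most like *Sall4* across E7.25 cells were *Phlda2* (0.59), *Dpysl2* (0.51) and *Ifitm1* (0.49), and at E7.75 these had 0.66, 0.63 and 0.38. *Sall4* was also positive with 6 of 7 nascent mesoderm genes at E7.25 (median 0.29) and with 4 of 4 at E7.75 (median 0.26). *Tdgf1* was negative with 8 of 9 haemato-endothelial genes at E7.25 (median -0.27), so this sign was not particular to *Sall4*. Of all 11463 genes, 4107 were negative with *Tdgf1*. *Pou5f1* gave weaker values at E7.25, with 9 of 9 haemato-endothelial genes negative (median -0.18) and 7 of 7 nascent mesoderm genes positive (median 0.22). Of all 11463 genes, 8010 were positive with *Pou5f1* and 3453 negative (median 0.05), so nothing is read from the number of positive genes. The genes closest to *Pou5f1* were *Ldb2* (0.45), *Maged1* (0.42) and *Sp8* (0.41), with -0.04, 0.09 and 0.08 at E7.75.

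**Figure D4:**
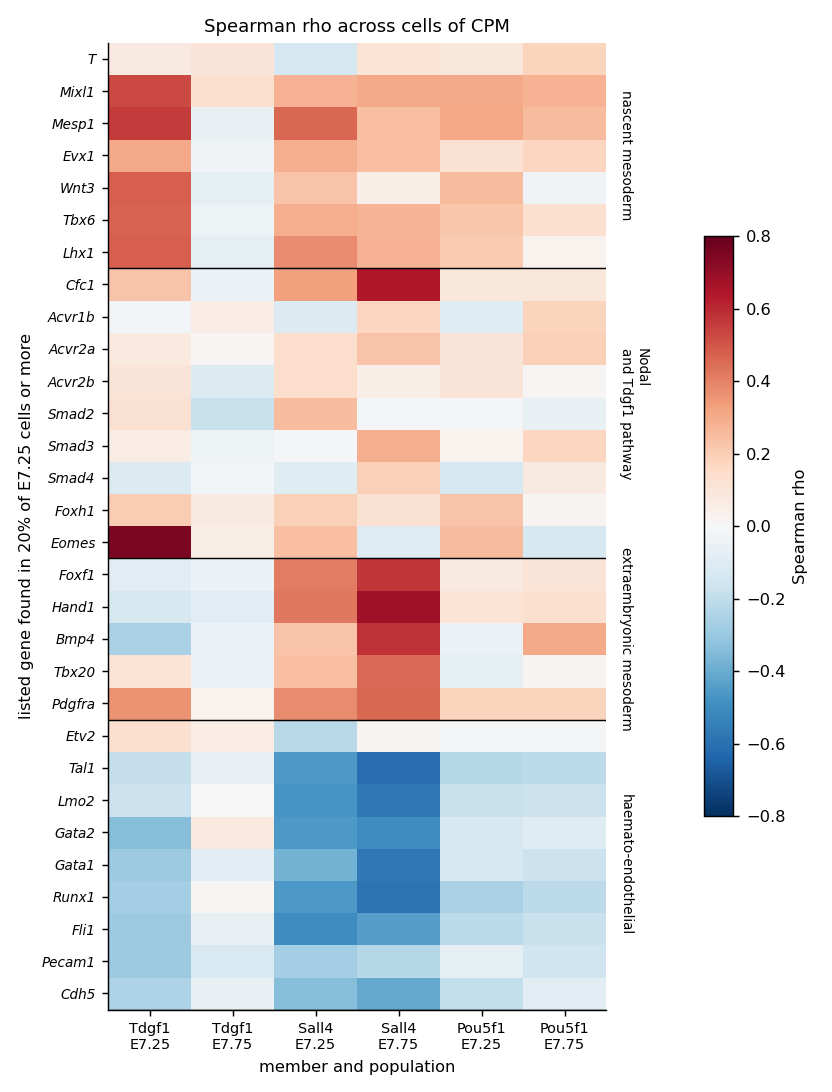
Spearman rho across cells between *Tdgf1*, *Sall4* and *Pou5f1* (columns, each over all E7.25 and over the 140 E7.75 cells) and listed genes found in 20% of E7.25 cells or more (rows, grouped by list). Red is positive and blue negative. *Tdgf1* is red in the nascent mesoderm rows at E7.25, up to 0.56 for *Mesp1*, and reaches 0.75 for *Eomes* in the Nodal pathway rows. *Sall4* is blue in the haemato-endothelial rows at both stages apart from *Etv2* at E7.75 (0.02). Its lowest value there is -0.61, for *Tal1* at E7.75.

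**Figure D5:**
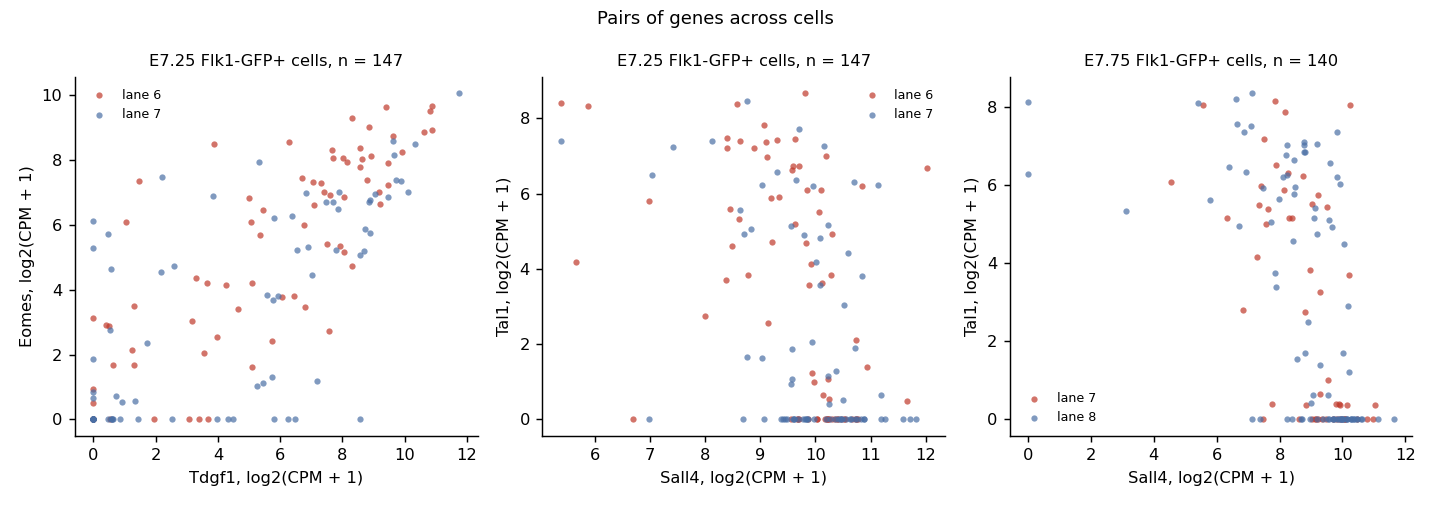
Log2(CPM + 1) of pairs of genes in single cells, coloured by lane. Left, *Tdgf1* (x axis) against *Eomes* (y axis) at E7.25 (rho 0.75), then *Sall4* (x axis) against *Tal1* (y axis) at E7.25 (rho -0.46) and at E7.75 (rho -0.61). *Eomes* is higher in cells with more *Tdgf1*, and *Tal1* is lower in cells with more *Sall4* at both stages.

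Over the means of the 13 populations, the genes most like *Pou5f1* were *Lhx1* (Pearson r 1.000), *T* (1.000) and *Evx1os* (0.999), on the log2(mean CPM + 1) scale. *Pou5f1* itself was at 0 in 11 of the 13 populations, so these values rest mainly on the other 2. *Tdgf1-ps1* (0.992) and *Mesp1* (0.988) were among the genes most like *Tdgf1*. *Spon1* (0.961), *Amot* (0.958) and *Hs6st2* (0.955) were most like *Sall4*, though *Spon1* was higher at E7.75 (137.2 CPM) than at E7.25 (63.6 CPM). *Ankrd1* (0.920), *Ly6f* (0.914) and *Clca2* (0.868) were most like *Dppa4*, and all 3 were higher in E8.5 Endo than in the other 3 populations compared here, with 35.55, 10.2 and 16.8 CPM.

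Markers of other cells that could carry these genes were counted in the same cells. Primordial germ cells keep *Pou5f1* and *Nanog* and arise near the base of the allantois. Of their defining markers, *Dppa3* was found in 2 and *Prdm14* in 2 E7.25 cells, *Nanos3* in 0 and *Dnd1* in 24. Of the other listed markers, *Prdm1* was found in 4 of these cells, *Tfap2c* in 7, *Dazl* in 3 and *Ddx4* in 24 (5.05 CPM). No cell held more than 1 of the 4 markers *Dppa3*, *Prdm14*, *Nanos3* and *Dnd1*. *Pou5f1* was found in 16 of the 28 cells with any of these 4, and without those 28 cells its share was 45.4%. At E7.75, 20 cells held a marker and 0 of them *Pou5f1*. Of 10 germ cell markers, 6 were in the filtered tables, and the sum of the list ran from 0 to 401.7 CPM at E7.25 (median 38.3). Its most abundant genes were *Alpl* (33.4 CPM) and *Ifitm3* (13.4 CPM), which are not particular to germ cells. The 9 visceral endoderm markers summed to between 0 and 34.9 CPM at E7.25 and to at most 38.1 CPM at E7.75, with a median of 0 at both stages, and *Afp* and *Hnf4a* had 0 counts at E7.25. Of 6 extraembryonic ectoderm markers, *Krt8* alone passed the filter (144.3 and 304.3 CPM) while *Elf5* had 0 counts and *Cdx2* was found in 9 E7.25 cells. Their list sum ran from 0 to 694.9 CPM at E7.25 and from 0 to 1456 at E7.75. The 6 embryonic ectoderm markers had a median sum of 0 at both stages, a maximum of 437.4 CPM at E7.25, *Otx2* as the most abundant gene (8.96 CPM) and no count of *Sox1* or *Sox3* at E7.25. The part of these cells in the values of the members was not tested beyond these counts.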

How the data were processed

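Sorted cells were captured by the authors with a Fluidigm C1 instrument and sequenced as Nextera XT libraries. They aligned the reads with Rsubread to the mouse genome (GRCm38) and counted them with featureCounts, and per the labels Subread and featureCounts were used. The read count tables deposited by the authors are whole counts per gene, for all captured cells and for the cells and genes that passed their scater filter. The signal table deposited by the authors gives CPM made with scran size factors, which within a cell is the count times a single factor (sums per cell 699615 to 4176737). Means, shares with exact (Clopper-Pearson) intervals and log2 ratios with a pseudocount of 1 were computed from these. Comparisons across all genes kept those with a mean of 10 CPM and 10% of cells at either side, and 2-fold was the limit. A count of 0 in a group was given a limit of 3 cells for a share and a floor of 3 counts over the group for a fold. Genes named besides the 6 were those most like each member (3 over the 13 populations and 3 across E7.25 cells), the highest or defining genes of the lists, and further list members chosen after their values were seen. The results of 1 gene are not reported here, and it was left out of its list. The 6 genes and all lists were chosen with earlier results of these data known. Gene positions and exon lengths came from GENCODE M21 (GRCm38), an annotation later than that of the counts. Because no embryos or pools are named, the design holds no replicates and no test was made. Scripts were tested on simulated data. The software was scipy 1.17.1, pandas 2.3.3 and numpy 2.4.6 under Python 3.11.15, and plots were drawn with matplotlib 3.10.9.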

Additional observations from a re-analysis of the deposited data

Results flagged for a closer look

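Signal was present in data outside the main comparisons. *Nanog*, which was read from the unfiltered table alone, had counts in 15 E7.25 cells and in no cell from E8.25 on. *Dppa2*, from the same table, had counts in 8 E7.25 cells, with 455 counts in all and 381 of them in a single cell. The authors' filter left out 12 E7.25 cells, and *Sall4* had counts in 12 of these and *Tdgf1* in 10, with 11167 and 636 counts in all. No library group of 4 to 10 samples existed, so single outlying samples could not be looked for.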

How the results depend on the processing

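No paired analysis was possible because the result comes from no test and the cells carry no shared replicate. Alternative values numbered 284, for the shares and means at E7.25 and E7.75, log2 ratios, counts of genes, combined members and rho values. Of these, 228 stayed near the reported value and 56 moved. Only log2 ratios and rho values can change sign, and 0 did. The shares, means and log2 ratios among these 284 values were those of the 4 members in the filtered tables. Of 562 further values, for *Nanog*, *Utf1* and the later populations, 478 stayed near the main value and 84 moved. Shares depended on the count limit. *Pou5f1* at E7.25 was 33.3% at 5 counts and 24.5% at 10, and at E7.75 7.14% at 10. *Tdgf1* at E7.25 was 70.7% at 5 and 67.3% at 10, and 3 or more members at 10 counts were in 21.8%. Without each lane in turn *Tdgf1* at E7.25 ran from 81.1% to 91.8%, *Sall4* at E7.75 from 97.7% to 100% and the mean of *Tdgf1* at E7.75 from 0.0104 to 1.59 CPM. Medians over cells were 0 CPM for *Pou5f1* and *Dppa4* at both stages and for *Tdgf1* at E7.75, and 51.8 for *Tdgf1* at E7.25. For E7.75 over E7.25 the log2 ratio of *Tdgf1* was -7.77 with a pseudocount of 0.1, -4.50 with 10, -4.94 as a difference of mean log2 values and -7.89 to -6.53 over the lanes. That of *Pou5f1* was -0.32 with 10, and that of *Dppa4* 2.31, 0.17 and 0.20 in the same order. For E8.25 HPC over E7.25 these 3 settings gave -5.53, -0.54 and -1.30 for *Pou5f1*, -9.27, -4.59 and -4.91 for *Tdgf1* and 3.02, 0.29 and 0.33 for *Dppa4*. For E8.5 Endo over E7.25 they gave -5.53, -0.54 and -1.30 for *Pou5f1*, -9.75, -4.61 and -4.99 for *Tdgf1* and 5.07, 1.01 and 0.82 for *Dppa4*, which was 1.65 without cells with both *Xist* and Y-linked counts. *Sall4* moved in the mean log2 difference alone, to -4.65 in E8.25 HPC and -4.95 in E8.5 Endo. Genes 2-fold or more lower numbered 925 without a filter, 96 with a filter at 100 CPM and 50% of cells and 78 at 4-fold for E7.75, where 483 are reported, and genes higher at E7.75 numbered 957, 48 and 88 (428 reported). Genes lower numbered 2286, 278 and 391 for E8.5 Endo (1216 reported). The number for E8.25 HPC is not reported here. Genes higher in E8.5 Endo numbered 582 with the stricter filter and 907 at 4-fold (1958 reported). The pseudocounts, filters and folds move these values by construction. Chosen after seeing the data, *Tdgf1* summed with *Tdgf1-ps1* gave a log2 ratio of -7.01 for E7.75 over E7.25. Depth limits what can be said of genes with a few counts per cell, such as *Utf1*.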
